A study of Mus musculus with 9 samples.

Results

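Isoleucine tRNA fragments are short RNAs cut from the transfer RNAs that carry isoleucine to the ribosome. Reads were taken as members where every alignment lay on a reference for mature Ile-AAT, mature Ile-TAT or the Ile-TAT precursor, each named by amino acid and anticodon. This gave 516 distinct sequences of 41240 and 2017 reads of 555585, which is 0.363% of the tRNA reads. Mature Ile-AAT held 245 sequences and 1095 reads, mature Ile-TAT 160 sequences and 385 reads, and the Ile-TAT precursor 111 sequences and 537 reads. The members were thinly covered, with 320 of the 516 seen as a single read, 356 in a single library and 10 in all 9 libraries.

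The RNA came from mouse blood serum, labelled week 20 in a study of atherosclerosis. There were 3 groups of 3 libraries. One received normal diet, another received high fat diet, and the last received SalB in addition to high fat diet. SalB is salvianolic acid B, a plant polyphenol from Salvia miltiorrhiza (danshen). The titles of the normal diet libraries carry the strain name C57 and those of the other groups do not, so strain and diet cannot be told apart in comparisons with normal diet. The ages, the dose of SalB and whether replicates are separate animals are not stated in the labels, so p-values describe only how far these samples spread, and that spread may be technical. Libraries held 28191 to 156333 tRNA reads. SalB replicate 2 stood apart from the other SalB libraries (chi-square per degree of freedom 440 and 344, against 6.49 to 28.8 for other pairs within a group), and results that rest on it are given with and without it. Only reads on tRNA references were used, so markers of blood cells could not be read, and more release of a fragment, more source cells and slower loss cannot be told apart.

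Mammalian isoleucine tRNAs read their codons with a pair of anticodons. In tRNA-Ile-AAT the first anticodon base, which pairs at the wobble position of the codon, is changed from adenosine to inosine, and reverse transcriptase copies inosine so that sequencing shows G. In tRNA-Ile-TAT that base is a uridine, modified to pseudouridine, and its genes carry an intron that is spliced out before the tRNA is used. Both tRNAs are made as precursors with a leader ahead of the mature part and a trailer after it that ends in a run of U. After the trailer is cut off, the letters CCA are added to the 3′ end, where the amino acid is attached. The T-loop, near the 3′ end, holds an A that is commonly methylated and can stop reverse transcriptase.

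The sequences that carry the results are shown here as DNA letters, 5′ to 3′. Positions count from 1 at the first base of the mature reference, whose Ile-AAT form ends at position 77 with the CCA tail. The first anticodon base is at position 35 (position 34 in standard tRNA numbering), and the T-loop A is at position 59. The first 4 lines are abundant mature 3′ fragments, with the CCA tail in capitals, shown because 3′ reads are compared between groups; the 18-base fragment is the only one of them whose share was compared by itself.
Ile-AAT 3′ fragment of 18 bases (positions 60 to 77, 288 reads): tccccgtacgggccaCCA
Ile-AAT 3′ fragment of 22 bases (positions 56 to 77, 20 reads): tcgatccccgtacgggccaCCA
Ile-TAT 3′ fragment of 16 bases (positions 62 to 77, 44 reads): ctcacctggagcaCCA
Ile-TAT 3′ fragment of 17 bases (positions 61 to 77, 15 reads): cctcacctggagcaCCA
The next 6 lines are internal fragments. Capitals mark the base read at the first anticodon position, and the long fragment in lower case starts after that base, at the last base of the anticodon.
Ile-AAT internal fragment of 31 bases (positions 37 to 67, 83 reads): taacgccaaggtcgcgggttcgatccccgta
Ile-AAT internal fragment with A35G (positions 34 to 55, 61 reads): tGataacgccaaggtcgcgggt
Ile-AAT internal fragment with A35G (positions 33 to 55, 40 reads): ctGataacgccaaggtcgcgggt
Ile-AAT internal fragment with G52A (positions 31 to 52, 38 reads): tgctAataacgccaaggtcgca
Ile-AAT internal fragment without a mismatch (positions 31 to 50, 23 reads): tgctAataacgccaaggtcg
Ile-TAT internal fragment (positions 33 to 55, 21 reads): ctTataatgccgaggttgtgagt
The last 4 lines are from the Ile-TAT-2-1 precursor, whose reference starts 40 bases ahead of the mature part. Capitals mark the bases past the end of the mature part.
Ile-TAT-2-1 trailer fragment (positions 122 to 142, 111 reads): ctcacctggagcaTGTTTTCT
Ile-TAT-2-1 trailer fragment (positions 122 to 141, 64 reads): ctcacctggagcaTGTTTTC
Ile-TAT-2-1 trailer fragment (positions 122 to 140, 55 reads): ctcacctggagcaTGTTTT
Ile-TAT-2-1 trailer fragment (positions 123 to 141, 36 reads): tcacctggagcaTGTTTTC

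Few copies of each tRNA could be told apart. Of the Ile-AAT reads, 978 of 1095 (89.3%) fitted the Ile-AAT-1-1 and Ile-AAT-3-1 references equally, which differ at 1 of 77 bases. Of the Ile-TAT reads, 308 of 385 (80%) fitted both Ile-TAT-1-1 and Ile-TAT-2-1, and 17 lay on Ile-TAT-3-1 alone. The precursor was different, since 507 of its 537 reads (94.4%) lay on the Ile-TAT-2-1 precursor alone and 17 on that of Ile-TAT-1-1. RefSeq lists 16 isoleucine tRNA genes of these anticodons in the mouse build GRCm38.p6, 8 of them on chromosome 13. One is named for anticodon TAT, n-TItat14, on chromosome 13 from 21896938 to 21897031, which is 94 bases long. The mature part of the Ile-TAT-2-1 precursor with its intron of 20 bases is also 94 bases long. Those of Ile-TAT-1-1, Ile-TAT-2-2 and Ile-TAT-2-3 are 95, 96 and 93 bases long, as are n-TIaat16, n-TIaat15 and n-TIaat17. The other genes named for AAT are 73 or 74 bases long, so RefSeq's names may not give the number of genes of each anticodon. The files do not pair RefSeq's names with the references, and no other coordinates are given.

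Reads of both tRNAs gathered in the anticodon loop and at the 3′ end, and were nearly absent from the 5′ end. In Ile-AAT, 371 reads (33.9%) started at position 60, the base after the T-loop A, 151 at position 31, 133 at position 37 and 74 at position 34. In Ile-TAT the most common start was position 62 with 75 reads (19.5%), followed by position 33 with 52 and position 34 with 38. The median read was 19 bases long in Ile-AAT, 18 in Ile-TAT and 20 in the precursor.

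**Figure D1:**
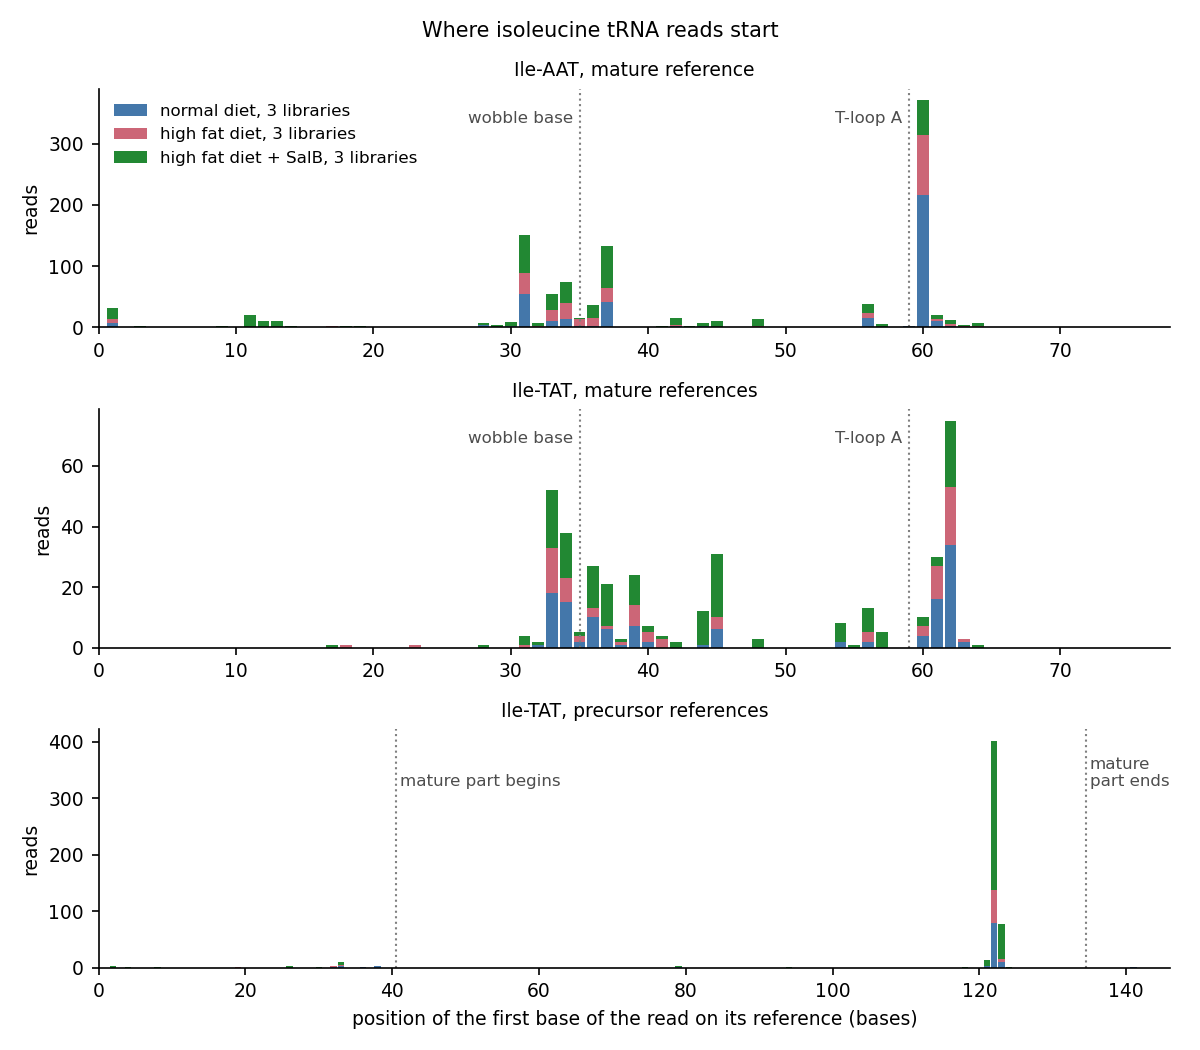
Reads by the position of their first base on the mature Ile-AAT, mature Ile-TAT and Ile-TAT precursor references, with the 3 libraries of each group summed and stacked. The tallest bars are at position 60 of Ile-AAT (371 reads), position 62 of Ile-TAT (75 reads) and position 122 of the precursor (402 reads), and the dotted lines mark the first anticodon base, the T-loop A and, for Ile-TAT-2-1, the bounds of the mature part.

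Fragments starting at the first base of the tRNA, the class that is abundant for glycine and glutamate tRNAs in serum, made up little of the isoleucine reads. Ile-AAT gave 31 such reads, 2.83% of its total, and the most frequent of them, ggccggttagctca (positions 1 to 14), had 8 reads. Ile-TAT gave 0 of 385. Taking 3 reads as the approximate 95% upper limit of a count of 0 allows a share of up to 0.779%, for counting error only. No read covered the first 16 bases of the Ile-TAT-1-1 and Ile-TAT-2-1 references, where position 17 was the first with a read. On Ile-TAT-3-1 the few reads nearer the 5′ end also fit other families, and the first member read started at position 18. Over both mature tRNAs the 5′ share was 2.14 ± 1.26% (SD over 9 libraries), against 24.7 ± 6.62% over all other nuclear families, and it was lower in 9 of 9 libraries (exact sign-flip permutation test over the pairs, two-sided p = 0.00391, the smallest that 9 pairs allow). The 3′ share was 42.4 ± 15.8% against 30.9 ± 8.69% and the internal share 55.5 ± 15.2% against 44.4 ± 8.21%, each higher in 9 of 9 libraries (exact permutation p = 0.00391 each, and 0.00391 adjusted over these 4 paired comparisons, the other being that of the first anticodon base given further on). A low 5′ share was not particular to isoleucine: among 33 nuclear families ranked upward by this share, Ile-AAT came 17th. By internal share, ranked from the highest, it came 16th. The 3′ share of Ile-AAT was 42.8%, where families ran from 0% (Glu-CTC) to 94.7% (Tyr-GTA). The pool of other families is weighted by reads, of which Gly-GCC gave 69221 of 267847, with 59.9% 5′ and 4.11% 3′. The 3 shares of a library add up to the whole, so their tests are not independent.

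The first anticodon base of Ile-AAT was read as G or A depending on where the read began. Of 323 reads over position 35, 168 (52.0%) had G (A35G). Reads starting at position 33 had G in 54 of 55, those starting at 34 in 70 of 74, those starting at 35 in 16 of 16, and those starting at 28 to 30 in 7 of 7, 4 of 4 and 8 of 8. Reads starting at position 31 had G in 4 of 151, which is 2.65% with an exact 95% binomial interval from 0.726 to 6.64%. Over all other starts the share was 95.3% (164 of 172 reads). Intervals here and below cover counting error only, since reads without molecular identifiers are not independent molecules. In each of the 9 libraries the reads from position 31 had G in 0 to 8% and the other reads in 85.7 to 100%, so the split was present in every library.

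Around the anticodon the difference between these reads was limited to that base. Where the base lay inside the read, positions 31, 33, 34, 36, 37 and 40 of Ile-AAT had 0 mismatches, with 31 reads at position 31 and 179 to 493 at the others. Positions 32, 38 and 39 had 1 of 175, 2 of 492 and 1 of 493. In Ile-TAT, the base at position 35 was read as T, as on the reference, in 97 of 97 such reads. The reads from position 31 differed in other ways too. Apart from position 35, 86 of their 151 (57.0%) carried a mismatch, 66 of them at the last base, and 143 ended before position 55. Of the 129 reads from positions 33 and 34, 2 carried a mismatch elsewhere (1.55%) and 103 ended at position 55. Both kinds were seen in all 9 libraries.

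**Figure D2:**
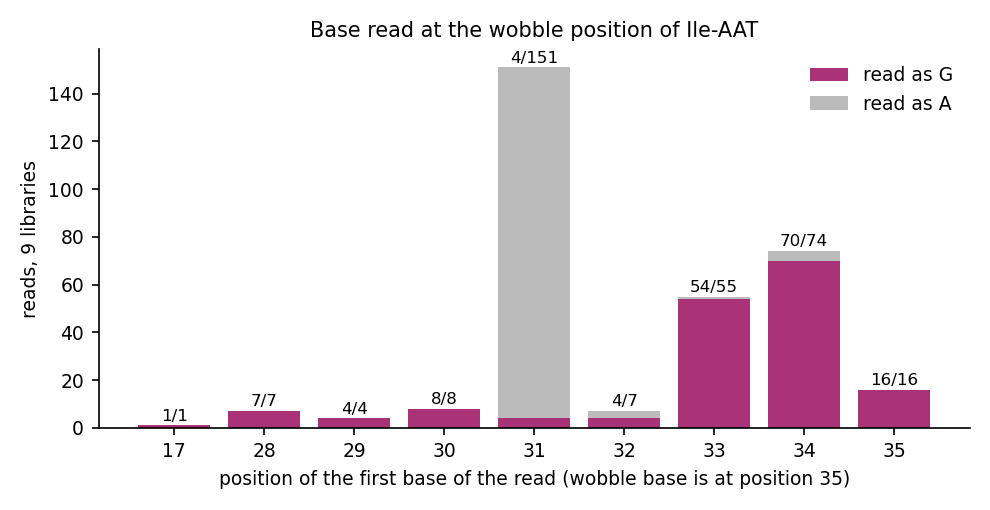
Ile-AAT reads over the first anticodon base (position 35), by the position of their first base, with 9 libraries summed. The dark part of each bar and the first number above it count reads with G, and the bar starting at 31 has G in 4 of 151 while those starting at 33 and 34 have G in 54 of 55 and 70 of 74.

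Other tRNAs that carry inosine at this place were compared by the same count, leaving out reads that began or ended on the base. Arg-ACG had G in 95 of 98 reads (96.9%) and Ile-AAT in 152 of 307 (49.5%), and Ile-AAT was the lower in 9 of 9 libraries (46.8 ± 12.8% against 95.7 ± 9.69%, exact sign-flip permutation p = 0.00391). The comparison was chosen after the values were seen. With all Ile-AAT reads over the base counted, those starting at position 31 had G in 4 of 151 and those from other starts in 164 of 172 (95.3%). Arg-ACG reads that began 4 bases ahead of the wobble base, as the Ile-AAT reads from position 31 do, had G in 12 of 12. Val-AAC had G in 22 of 23 reads, Leu-AAG in 7 of 9, Ser-AGA in 4 of 5, Ala-AGC in 1 of 4 and Pro-AGG in 0 of 7, which are too few to rank.

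The share of Ile-AAT reads with G at this base was compared across groups. In replicates 1, 2 and 3 it was 32.3, 42.1 and 36.1% under normal diet, 69.6, 40 and 53.1% under high fat diet, and 61.02, 58.3 and 51.0% with SalB. The high fat diet group overlapped both other groups, and every SalB library lay above every normal diet library. The means were 36.8 ± 4.96%, 54.2 ± 14.8% and 56.8 ± 5.17% (n = 3 each). For SalB against normal diet the permutation test (exact, two-sided) gave p = 0.1, which 3 against 3 cannot go below, and 0.3 adjusted over the 3 comparisons. High fat diet against normal diet gave 0.2, and SalB against high fat diet 0.9. The share of these reads that began at position 31 was 62.2 ± 5.02%, 41.8 ± 12.7% and 43.0 ± 6.98%. Among reads from other starts the G share was 97.6 ± 4.12%, 91.4 ± 4.90% and 95.6 ± 4.55%. The mix of starts therefore moved with the G share, and its part in the group difference was not tested beyond these values.

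The Ile-TAT precursor was higher with SalB than in either other group. Its reads in replicates 1, 2 and 3 numbered 22, 23 and 62 under normal diet, 26, 15 and 28 under high fat diet, and 81, 229 and 51 with SalB. As shares of all tRNA reads, these were 0.0512, 0.0741 and 0.0655%, then 0.0469, 0.0532 and 0.0630%, then 0.130, 0.146 and 0.127%. Every SalB library lay above all 6 others, and the normal and high fat diet libraries overlapped. Levels are given below as scaled CPM, reads relative to the library's tRNA reads, in which each library's total was adjusted by trimmed means of M values so that most sums keep a fold change near 1. On that scale the precursor stood at 1705 ± 774 with SalB, 493 ± 89.6 under high fat diet and 605 ± 131 under normal diet (n = 3 each).

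Family sums were tested with limma-voom, a linear model of log2 counts weighted by their precision, fitted over 103 family sums and called at a Benjamini-Hochberg adjusted p under 0.05. The precursor rose with SalB against high fat diet by a log2 fold change of 1.68 (SE 0.35, limma-voom adjusted p = 0.0103) and against normal diet by 1.40 (SE 0.33, limma-voom adjusted p = 0.0117). Of all 103 families 26.2% were called in each of these comparisons, and 50.5% and 43.7% had no overlap between the groups. Without SalB replicate 2 the log2 fold changes were 1.34 and 1.11 (limma-voom adjusted p = 0.00234 and 0.00437). Without normal diet replicate 1 the call against normal diet was lost at 1.20 (limma-voom adjusted p = 0.0557), and with no filter on low counts at 1.15 (0.0648). The SalB comparisons share the SalB libraries, so they are not independent of each other. High fat diet against normal diet gave -0.29 (SE 0.37, limma-voom adjusted p = 0.915).

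The mature families were not called in any comparison. Ile-AAT reads in replicates 1, 2 and 3 numbered 124, 85 and 189 under normal diet, 122, 55 and 84 under high fat diet, and 158, 166 and 112 with SalB. Its scaled level was 2385 ± 286, 1819 ± 122 and 2363 ± 417, and only high fat diet and normal diet did not overlap. As unscaled shares of tRNA reads those groups overlapped too. Log2 fold changes were -0.39 for high fat diet against normal diet, 0.36 for SalB against high fat diet and -0.02 for SalB against normal diet (limma-voom adjusted p = 0.879, 0.229 and 0.963). Ile-TAT reads numbered 35, 22 and 72, then 34, 20 and 33, then 59, 74 and 36. Its scaled level was 721 ± 62.5, 623 ± 76.2 and 882 ± 68.8, and the SalB libraries lay above all others on that scale. As unscaled shares of tRNA reads the groups overlapped. SalB replicates 1, 2 and 3 held 0.0948, 0.0473 and 0.0897%, against 0.0708 to 0.0814% under normal diet and 0.0613 to 0.0743% under high fat diet. Log2 fold changes of Ile-TAT were -0.23, 0.50 and 0.27 in the same order (limma-voom adjusted p = 0.908, 0.0917 and 0.317).

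Between the diets, 0 of the 3 isoleucine families were called by limma-voom and 0 had an unadjusted p under 0.05, as was also the case with limma on log2 values. Of all 103 families 0% were called and 21.4% had groups that did not overlap, with 6 at an unadjusted p under 0.05 (5 with limma on log2 values). The isoleucine reads together made up 0.421, 0.419 and 0.341% of tRNA reads under normal diet and 0.328, 0.319 and 0.326% under high fat diet. The groups did not overlap, and the difference of -0.0689 percentage points gave an exact permutation p of 0.1, the smallest possible (0.3 adjusted over 3 comparisons). With SalB the share was 0.479, 0.30 and 0.496%, which overlapped both other groups (exact permutation p = 0.4 and 0.6).

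**Figure D3:**
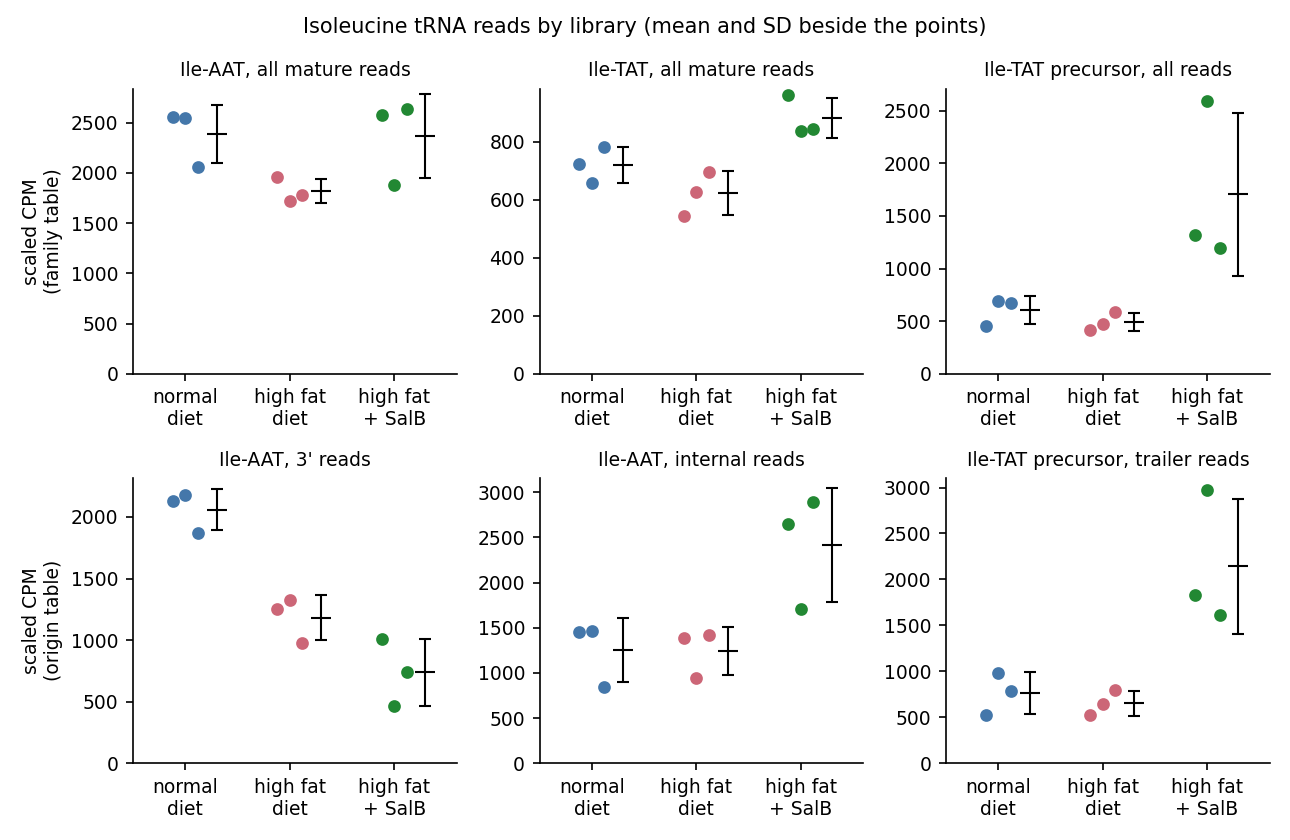
Scaled CPM of 3 family sums (upper row) and 3 sums of 1 origin (lower row) in each library, with points for replicates 1 to 3 from left to right and the mean with its SD beside them. The 2 rows were scaled as separate tables, so a sum and its parts cannot be compared across rows. In scaled CPM, SalB libraries lie above all others for mature Ile-TAT, the Ile-TAT precursor, its trailer and Ile-AAT internal reads. As unscaled shares of tRNA reads, this held for the precursor and its trailer, but not for mature Ile-TAT or Ile-AAT internal reads.

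The precursor reads were nearly all trailers. Trailer reads, those running past the end of the mature part, numbered 18, 22 and 54 under normal diet, 24, 15 and 27 under high fat diet, and 78, 213 and 48 with SalB in replicates 1 to 3. Leader reads numbered 4, 1 and 6, then 2, 0 and 1, then 1, 15 and 3, and were too few to test. The most frequent leader, AAAAGCATgctccagtggcg, with the leader bases in capitals and the substitution G33A, had 6 reads. Reads within the mature part or the intron numbered 5 in all.

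The trailer fragments crossed the point at which a precursor is cut. Of 499 trailer reads, 489 (98.0%) were on Ile-TAT-2-1 and began at positions 121 to 123, which lie inside the mature part. With the 40 leader bases and the intron of 20 bases taken off, position 122 is position 62 of the mature tRNA, the most common start of the mature Ile-TAT 3′ fragments as well. The printed 16-base mature fragment and the 3 printed trailer fragments from position 122 thus share their first 13 letters and part at CCA or at TGTTTT. Most trailer reads ended 6, 7 or 8 bases past the mature part, with 87, 139 and 183 reads, inside or just after the run of T. Of the trailer reads, 1 held no base of the mature part, in normal diet replicate 3. Of the leader reads, 7 held none, 6 of them in SalB replicate 2.

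**Figure D4:**
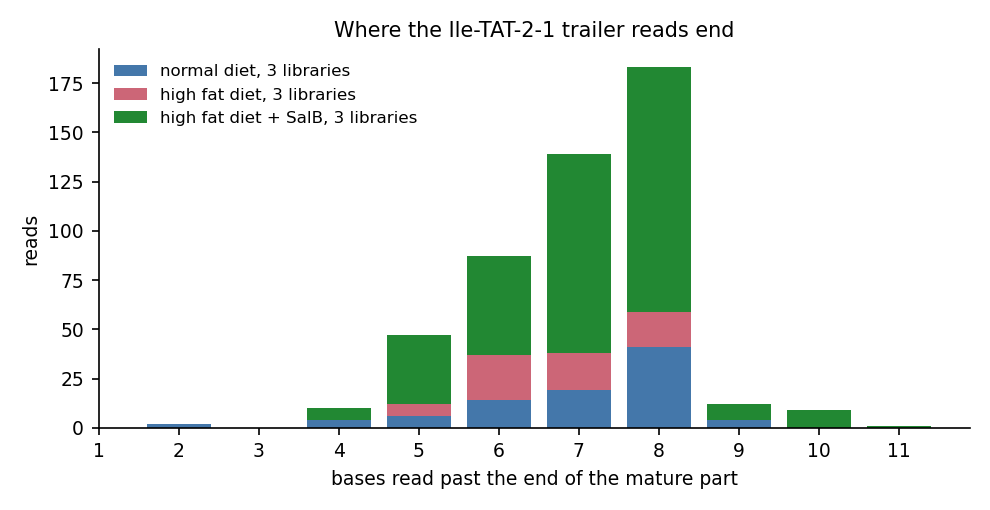
Trailer reads of the Ile-TAT-2-1 precursor by the number of bases read past the end of the mature part, with the 3 libraries of each group summed and stacked. The ends gather at 6, 7 and 8 bases (87, 139 and 183 reads), of which SalB libraries give 50, 101 and 124. Without SalB replicate 2 they give 32 of 69, 19 of 57 and 38 of 97.

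Origin sums, the reads of 1 origin within 1 family, were tested in a fit of their own over 128 sums. The trailer of Ile-TAT stood at 764 ± 228 scaled CPM under normal diet, 655 ± 136 under high fat diet and 2141 ± 732 with SalB, with no overlap between SalB and the others. It rose with SalB against high fat diet by a log2 fold change of 1.68 (SE 0.35, limma-voom adjusted p = 0.00581) and against normal diet by 1.51 (SE 0.34, limma-voom adjusted p = 0.00680). Of all 128 origin sums 22.7% and 26.6% were called in these comparisons, and 36.7% and 42.2% had groups that did not overlap. Among the 21 trailer sums tested, 2 were called higher and 2 lower against high fat diet, with a median log2 fold change of 0.35, and 4 higher and 1 lower against normal diet, with a median of 0.36. Without SalB replicate 2 the trailer of Ile-TAT had log2 fold changes of 1.27 and 1.17 (limma-voom adjusted p = 0.00827 and 0.00970). With total counts in place of the scaling, which moved the median of all origin sums by -0.69 and -0.58 on the log2 scale, both calls were lost at 0.99 and 0.92 (limma-voom adjusted p = 0.0551 and 0.0638).

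Single trailer fragments fell under the filter on low counts, which asked for 10 reads at the median depth of 44415 in at least 3 libraries. The fragment ending at position 142 had 1, 9 and 15 reads under normal diet, 3, 3 and 4 under high fat diet, and 13, 54 and 9 with SalB. The fragment from 123 to 141 had 30 of its 36 reads in SalB replicate 2. The fragment ending at position 140 was more even within SalB, with 10, 9 and 13 reads against 5, 3 and 6 under high fat diet and 2, 3 and 4 under normal diet.

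Precursor and mature Ile-TAT reads were also set against each other within each library, a comparison that needs no scaling between libraries. Precursor reads made up 38.6, 51.1 and 46.3% of the Ile-TAT reads under normal diet, 43.3, 42.9 and 45.9% under high fat diet, and 57.9, 75.6 and 58.6% with SalB. All 3 SalB libraries lay above the other 6. The means were 45.3 ± 6.31%, 44.0 ± 1.64% and 64.0 ± 10.0177%, with an exact permutation p of 0.1 for SalB against each other group, the smallest possible, and 0.15 adjusted over 3 comparisons. Without SalB replicate 2 the differences were 14.2 percentage points against high fat diet and 12.9 against normal diet, in place of 20.0 and 18.7. This share was chosen after the values were seen.

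The other intron-containing tRNAs, a list chosen with earlier results of these data known, did not move as 1 group. Of the 3 mature families (Arg-TCT, Leu-CAA and Tyr-GTA), Leu-CAA was called higher and Tyr-GTA lower in both SalB comparisons. Their median log2 fold changes were 0.32 and 0.46, against 0.19 and 0.21 over all families. Of their precursors, those of Leu-CAA and Tyr-GTA could be tested and neither was called with limma-voom, with medians of -0.29 and -0.22. Of the 7 other inosine-carrying families listed, 5 were tested, and 0 were called higher and 3 lower (Ala-AGC, Arg-ACG and Thr-AGT) in both SalB comparisons, with medians of -0.87 and -0.90. Over all 103 families 26.2% were called in each of these comparisons. Between the diets none of these lists had a called member.

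The make-up of the Ile-AAT reads differed between the groups, with fewer 3′ fragments and more internal fragments with SalB. The 3′ share, of reads reaching the CCA tail, was 58.9, 57.6 and 67.7% in normal diet replicates 1 to 3, 46.7, 56.4 and 39.3% under high fat diet, and 27.2, 19.9 and 19.6% with SalB. No group overlapped another in this share when all reads were counted. The means were 61.4 ± 5.50%, 47.5 ± 8.56% and 22.2 ± 4.31%, and each of the 3 comparisons gave an exact permutation p of 0.1, the smallest possible (0.18 adjusted over 9 comparisons of the make-up). The internal share was 36.6 ± 5.18%, 49.6 ± 8.75% and 73.9 ± 2.66%, with overlap between the diets only (exact permutation p = 0.2 between the diets and 0.1 for both SalB comparisons). Among reads without a mismatch the diets overlapped, with differences of -4.54 percentage points in the 3′ share and 4.60 in the internal share, in place of -13.96 and 12.98 (exact permutation p = 0.7 for both). The 5′ share was 1.97 ± 1.40%, 2.95 ± 1.13% and 3.82 ± 2.69%, with overlap throughout. Mature Ile-TAT showed the same order for SalB, with a 3′ share of 46.4 ± 7.85%, 42.9 ± 1.95% and 26.5 ± 9.75% (exact permutation p = 0.1 for both SalB comparisons and 0.6 between the diets).

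In scaled CPM, the 3′ sum of Ile-AAT was 2127, 2181 and 1867 under normal diet, 1250.2, 1322 and 975 under high fat diet, and 1008, 461 and 741 with SalB. SalB and normal diet did not overlap, and neither did the diets, while SalB replicate 1 lay within the high fat diet range. It fell by 1.55 on the log2 scale with SalB against normal diet (SE 0.32, limma-voom adjusted p = 0.00389). Against high fat diet its log2 fold change was -0.76 (SE 0.33, limma-voom adjusted p = 0.110), and it was called without SalB replicate 1, at -1.04 (0.0333), and with total counts in place of the scaling, at -1.45 (0.0369). High fat diet against normal diet gave -0.79 (SE 0.31, limma-voom adjusted p = 0.431), with an unadjusted p of 0.0270, in a comparison where 0% of origin sums were called and 21.1% did not overlap. Among the 31 3′ sums tested, 9 were called lower and 3 higher with SalB against high fat diet, and 10 lower and 3 higher against normal diet, with medians of -0.62 and -0.80, so a lower 3′ sum was not particular to Ile-AAT.

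The internal sum of Ile-AAT was 1457, 1469 and 846 scaled CPM under normal diet, 1382, 938 and 1418 under high fat diet, and 2648, 1706 and 2898 with SalB. The SalB libraries lay above all others on this scale, but not as unscaled shares of tRNA reads. SalB replicate 2 held 122 internal reads of 156333 tRNA reads, a lower share than the 50 of 43007 in normal diet replicate 1. The log2 fold change was 0.97 against normal diet (SE 0.33, limma-voom adjusted p = 0.0497), just under the threshold, and 0.91 against high fat diet (SE 0.33, limma-voom adjusted p = 0.0692). The call against normal diet was lost without replicate 2 or 3 of normal diet, replicate 3 of high fat diet, or replicate 1 or 3 of SalB (limma-voom adjusted p = 0.0528, 0.178, 0.0555, 0.0898 and 0.0984), and under 6 of the other settings. Without SalB replicate 2 the sum was called in both comparisons (limma-voom adjusted p = 0.0317 and 0.00970). In that library 44.3% of the internal reads began at positions 31 to 37, against 86.7 and 77.9% in SalB replicates 1 and 3 and 82.0 to 97.9% in the other groups. Among the 47 internal sums tested, 8 were called higher and 1 lower with SalB against high fat diet, and 11 higher and 0 lower against normal diet. Their median log2 fold changes were 0.31 and 0.36, so a higher internal sum was not particular to Ile-AAT.

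The sums of mature Ile-TAT were not called. Its 3′ sum was 470 ± 62.9, 368 ± 54.9 and 332 ± 162 scaled CPM, with log2 fold changes of -0.38 for SalB against high fat diet and -0.70 against normal diet (limma-voom adjusted p = 0.553 and 0.217). Without SalB replicate 2 the first of these was 0.07. Its internal sum was 547 ± 98.5, 490 ± 63.8 and 878 ± 11.97 and did not overlap between SalB and the others on that scale (log2 fold changes 0.83 and 0.63, limma-voom adjusted p = 0.0551 and 0.09996). Unscaled, SalB replicate 2 held 62 internal reads of 156333 tRNA reads, a lower share than the 19 of 43007 in normal diet replicate 1. Between the diets 0 of the 5 isoleucine origin sums were called with limma-voom, and 1 had an unadjusted p under 0.05, the 3′ sum of Ile-AAT, as was also the case with limma on log2 values. Of all 128 origin sums 0 were called, and 10 had an unadjusted p under 0.05 (12 with limma on log2 values).

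Only 2 of the 516 member sequences were abundant enough for a test of single fragments, in a fit over 733 fragments. The 18-base 3′ fragment of Ile-AAT had 54, 35 and 82 reads under normal diet, 34, 22 and 23 under high fat diet, and 24, 7 and 7 with SalB. It made up 42.7 ± 1.33% of the Ile-AAT reads under normal diet, 31.7 ± 7.15% under high fat diet and 8.55 ± 5.84% with SalB, with no overlap between any of the groups (exact permutation p = 0.1 for each comparison). Its scaled level was 1384 ± 212, 795 ± 147 and 365 ± 266. It fell by 2.11 on the log2 scale with SalB against normal diet (SE 0.46, limma-voom adjusted p = 0.00488), where 39% of all fragments were called and 50.3% did not overlap. Against high fat diet, where 34.2% were called and 50.1% did not overlap, the log2 fold change was -1.32 (SE 0.47, limma-voom adjusted p = 0.0497) and the groups overlapped through SalB replicate 1. That call was lost without any single library other than SalB replicate 1, with adjusted p from 0.0600 to 0.205, the last being without SalB replicate 2 at -0.77, and under 6 of the other settings, with adjusted p from 0.0537 to 0.0618. High fat diet against normal diet gave -0.79 (SE 0.41, limma-voom adjusted p = 0.462), where 0% of fragments were called and 24.1% did not overlap.

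The 31-base internal fragment of Ile-AAT, which runs from the last anticodon base through the T-loop A to position 67, had 9, 10 and 5 reads under normal diet, 3, 1 and 6 under high fat diet, and 21, 15 and 13 with SalB. Its scaled level was 250 ± 178, 94.7 ± 69.0 and 475 ± 115, and the SalB libraries lay above those of high fat diet while overlapping normal diet. It rose with SalB by a log2 fold change of 2.28 against high fat diet (SE 0.81, limma-voom adjusted p = 0.0485) and 1.71 against normal diet (SE 0.57, limma-voom adjusted p = 0.0345). The first call was lost without normal diet replicate 1, or any single high fat diet library (limma-voom adjusted p = 0.0503, 0.192, 0.116 and 0.0757), and with total counts, at 1.53 (0.176). The second was lost without normal diet replicate 3, at 0.58 (0.352), with total counts at 1.00405 (0.248), with no filter at 0.94 (0.443), with limma on log2 values at 1.09 (0.173), with the replicate block at 1.53 (0.0703) and with only the 2 groups compared at 1.70 (0.0681). Without normal diet replicate 2, SalB replicate 1 or SalB replicate 3 the fragment fell under the filter and was not tested. These were the libraries in which it reached the filter, and no high fat diet library did. For that reason it was also not tested with the stricter filter, nor against high fat diet with only the 2 groups compared.

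Where the 3′ reads of Ile-AAT began also differed between SalB and the other groups. Reads starting at position 60, the base after the T-loop A, made up 91.8, 89.8 and 81.3% of the 3′ reads under normal diet, 75.4, 90.3 and 84.8% under high fat diet, and 72.1, 36.4 and 45.5% with SalB. Reads that held the T-loop A made up 4.11, 8.16 and 10.2%, then 14.04, 6.45 and 3.03%, then 18.6, 36.4 and 36.4%. In both measures the SalB libraries lay outside the range of all others, and the diets overlapped. The means of the second were 7.48 ± 3.08%, 7.84 ± 5.63% and 30.4 ± 10.3% (exact permutation p = 0.1 for both SalB comparisons, 0.15 adjusted over 6 comparisons). These shares rest on 22 to 43 reads in each SalB library. They were chosen after the values were seen.

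**Figure D5:**
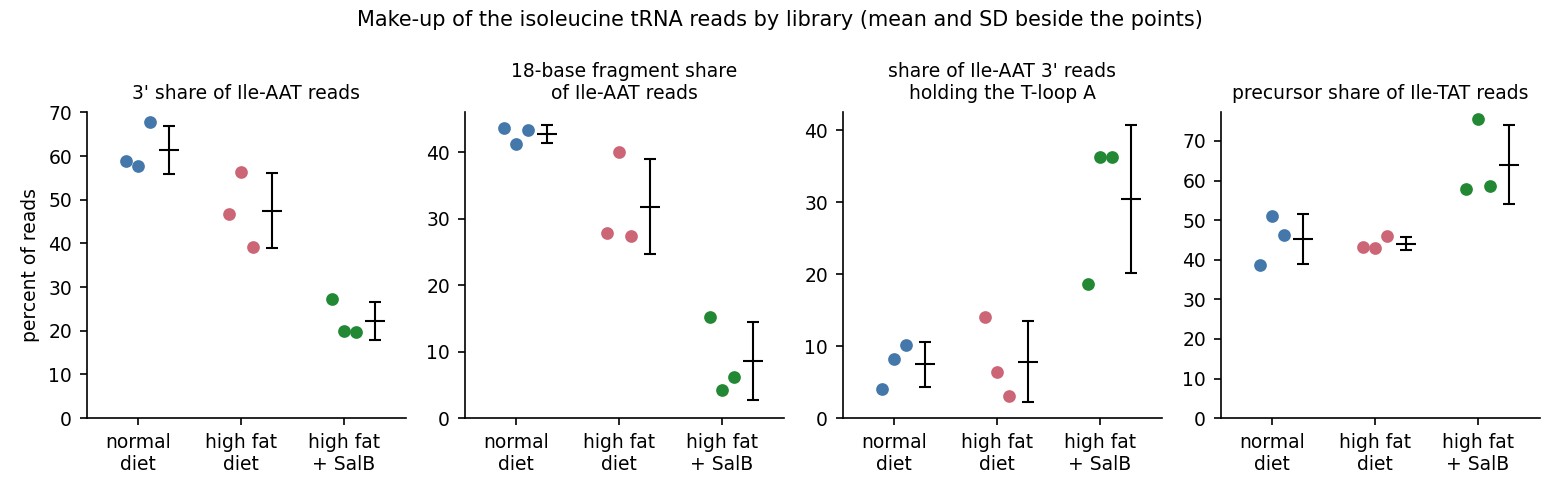
Percent of reads in each library for 4 shares: 3′ reads among Ile-AAT reads, the 18-base fragment among Ile-AAT reads, 3′ reads holding the T-loop A among Ile-AAT 3′ reads, and precursor reads among Ile-TAT reads. Points are replicates 1 to 3 from left to right with the mean and SD beside them, and in all 4 panels the SalB libraries lie outside the range of the other 6.

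The abundant anticodon-loop fragments were compared by reads alone, since they fell under the filter. The fragment from position 34 to 55 with A35G had 2, 4 and 5 reads under normal diet, 13, 4 and 8 under high fat diet, and 16, 2 and 7 with SalB. In scaled CPM this was 98.8 ± 62.5, 232 ± 59.7 and 251 ± 199, and only the diets did not overlap. The gap was narrow, since replicate 2 of normal diet and replicate 2 of high fat diet held 4 reads each, at 171 and 174. Of the 733 fragments tested, 24.1% did not overlap between the diets. The matching fragment from position 33 had 2, 2 and 4, then 12, 1 and 3, then 7, 3 and 6. The Ile-TAT fragment of the same positions, 33 to 55, had 0, 2 and 10 reads under normal diet, 2, 2 and 2 under high fat diet and 2, 0 and 1 with SalB. The Ile-AAT fragment from 31 to 52 was seen in every library, with 3, 3 and 5 reads, then 3, 1 and 4, then 6, 5 and 8. Its scaled level was 94.0 ± 30.4, 75.5 ± 36.7 and 195 ± 94.2, and only SalB and high fat diet did not overlap. The lowest SalB library stood at 118 and the highest high fat diet library at 115. Of the fragments tested, 50.1% did not overlap in that comparison.

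Mismatches at the last base were carried by 17.1% of isoleucine reads and 18.01% of all other tRNA reads, so a printed sequence that differs from its reference only at the last base may be a misread or extended end. These rates do not describe the Ile-AAT reads from position 31, of which 66 of 151 had such a mismatch. The printed fragment with G52A had 38 reads, against 10 for the same positions without a mismatch, and the cause was not tested. The families whose scaled level followed that of Ile-AAT most closely over the 9 libraries were mitochondrial Leu-TAA and nuclear Ser-GCT (Spearman's rho 0.667 each), Leu-CAA (0.650), mitochondrial Val-TAC (0.633) and mature Ile-TAT (0.617). These values share libraries and scaling and are given as a description.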

How the data were processed

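Small RNA from mouse serum was made into libraries with a kit for tRNA-derived RNA, selected by size on a gel and sequenced, per the labels' protocols. The submitters' processing notes list FastQC, cutadapt, Bowtie, edgeR and mm10 without versions. The authors deposited 1 alignment list per library, with offsets on tRNA references and the read count of each collapsed sequence inside its name. A check of the files showed reads of 14 to 40 bases with at most 1 mismatch. Files hold tRNA reads only, so totals are not library depth, and reference letters were recovered from the reads.

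Reads were counted once each. Reads that also fit another family were left out of the isoleucine members and of the origin sums. Among the family sums such reads formed sums of their own, and among the fragments they were kept. Groups came from the treatment labels. Family sums (103 tested of 326), origin sums (128 of 322) and fragments (733 of 41240) were fitted with limma-voom (limma 3.58.1, R 4.3.3) over 9 libraries. Trimmed-mean scaling was computed on tested rows, with factors of 0.471 to 1.21 for the fragments. Benjamini-Hochberg adjustment was used, with a filter of 10 reads at the median depth in 3 libraries and 15 in all. The fit was tested on simulated data. Shares were compared by two-sided exact permutation. Members, lists and tests were chosen with earlier results of these data known. Named were the isoleucine sums with at least 15 reads, called isoleucine fragments and the most abundant fragments of each origin. Settings varied in turn were the scaling (RLE size factors, total counts), no or a stricter filter (6 libraries), only the groups compared, the replicate block, limma on log2 values (pseudocount 1), reads without a mismatch, shared reads and leaving out each library.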

Additional observations from a re-analysis of the deposited data

Results flagged for a closer look

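Some isoleucine tRNA reads lay outside the members. The Ile-AAT precursor, which the choice of members leaves out, stood at 33.8 ± 11.04 reads per 100000 tRNA reads with SalB, 19.4 ± 5.67 under high fat diet and 9.79 ± 2.96 under normal diet (n = 3 each, 123 reads in all). It rose with SalB against high fat diet by a log2 fold change of 1.20 (limma-voom adjusted p = 0.0407) and against normal diet by 2.06 (limma-voom adjusted p = 0.00369). Of all 103 families 26.2% were called in each of these comparisons. The precursor's reads in replicates 1, 2 and 3 numbered 29, 43 and 11 with SalB, 11, 7 and 6 under high fat diet, and 3, 4 and 9 under normal diet. Outside SalB only high fat diet replicate 2 reached the filter on low counts, so this sum was tested only because the SalB libraries passed. Reads on mitochondrial Ile-GAT, which were too few to test, stood at 18.7 ± 8.31 per 100000 with SalB, 7.77 ± 1.07 under high fat diet and 8.73 ± 3.61 under normal diet (62 reads in all). The SalB and normal diet libraries overlapped in these reads, since SalB replicate 2 held 0.0109% and normal diet replicate 2 held 0.0129% of the tRNA reads. Precursor reads that Ile-AAT shares with other families numbered 360 in SalB replicate 2 and 17 in the other 8 libraries together.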

How the results depend on the processing

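The rise of the Ile-TAT precursor with SalB against high fat diet was called in all 18 alternatives, with log2 fold changes from 1.30 to 1.83 and limma-voom or limma adjusted p up to 0.0407. Call counts over the isoleucine sums and fragments changed as follows, and the cause was not tested. For SalB against normal diet, called families went from 1 to 0 with no filter and were 0 to 1 without single libraries. Called origin sums, 3 in the reported fit, were 1 with total counts, 2 with no filter, the replicate block, limma on log2 values, only the 2 groups compared and reads without a mismatch, and 2 to 3 without single libraries. For SalB against high fat diet, called origin sums went from 1 to 2 with the stricter filter, limma on log2 values, reads without a mismatch and shared reads, and were 1 to 2 without single libraries. Called fragments for SalB against high fat diet, 2 in the reported fit, were 5 with no filter (3 of them trailer fragments), 1 with RLE size factors, total counts, the replicate block and reads without a mismatch, 0 with the stricter filter and with only the 2 groups compared, and 0 to 1 without single libraries. For SalB against normal diet they were 1 with total counts, the stricter filter, the replicate block, limma on log2 values and only the 2 groups compared, and 1 to 2 without single libraries.

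Log2 fold changes that reversed were uncalled before and after. For SalB against high fat diet, Ile-AAT had -0.0292 with total counts, and Ile-TAT 3′ reads ran from -0.765 to 0.0704 without single libraries. For SalB against normal diet, Ile-AAT had 0.0133 with shared reads and ran from -0.144 to 0.179 without single libraries, and Ile-TAT had -0.0326 with total counts and -0.0240 with no filter. For high fat diet against normal diet, Ile-AAT internal reads had -0.361 without mismatched reads, -0.0222 with shared reads and -0.213 to 0.376 without single libraries, and the trailer ran from -0.240 to 0.0453. In percentage points, the isoleucine share for SalB against normal diet became -0.0557 without mismatched reads and ran from -0.00415 to 0.0938 without single libraries. The 5′ share of Ile-AAT became -0.0661 between the diets without mismatched reads and ran from -0.530 to 2.15 for SalB against high fat diet. The G share for SalB against high fat diet ran from -4.55 to 10.2. The precursor share of Ile-TAT between the diets was 0.806 with trailers only and 1.63 without mismatched reads, and ran from -4.66 to 1.60. Alternatives for the precursor share were chosen after seeing the data. RLE size factors moved the median of all families by -0.12 for both SalB comparisons, and total counts by -0.42 and -0.34. Same-numbered libraries did not deviate together (correlations of families from -0.359 to 0.193). Each correlation rests on deviations from means of 3 libraries, so it cannot decide whether the numbers pair the samples. Most members had a single read, and 514 of the 516 were not tested as single fragments in the reported fit.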
